A study of Rattus norvegicus with 4 samples.

Results

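Interferon regulatory and response genes were followed here as a set of 9: the transcription factors Irf1, Irf7, Irf8 and Irf9, the signal transducer Stat2, and the response genes Mx1, Mx2, Oasl and Isg15. Each was found on the array by its name, or by an older name resolved through the accession or description in the scanner files (Irf9 as Isgf3g, Isg15 as G1p2, Oasl as Oasl1, and Irf8 under an accession only). All 9 were present among the 17009 genes that could be named on the array, each with 1 probe in 1 spot. Of the 9, 6 were bright and clean enough to be among the 10340 genes tested (18896 of 41012 probes). The rats were of the inbred F344 strain, and both groups drank 5% dextran sodium sulphate (DSS), which injures the colonic epithelium and serves as a model of colitis, for 5 days. The treated rats had first been fed resveratrol, a polyphenol of grapes and other plants, for 20 days (1 mg per kg each day), while the control rats had standard chow. RNA of the colon mucosa was hybridised to 4 two-colour Agilent arrays, each with 2 of 8 resveratrol rats pooled in the Cy5 channel and a pool of DSS control rats in the Cy3 channel. Neither the number of rats in the control pool nor whether all arrays shared it is given in the sources used here. No sample without DSS and no animal given resveratrol alone was analysed here.

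The comparison asks how transcript levels under DSS differ after resveratrol feeding. All ratios are Cy5 over Cy3 on the log2 scale, so a positive value is higher in the resveratrol samples. The dyes were never exchanged, so a dye effect and the treatment cannot be told apart, and the control pool counts as 1 control sample whose own spread is outside the test. The arrays lay on 2 slides, replicates 1 and 2 on the first and 3 and 4 on the second, and scan time split the arrays in the same way. The share of spots well above background was 44.1% to 49.2% in Cy5 and 42.8% to 57.1% in Cy3. Outlier-flagged spots made up 3.45% to 13.7% of each array.

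Interferons are secreted proteins that cells release on sensing viral or bacterial nucleic acids. Type I interferons bind a receptor whose kinases activate STAT2, which joins IRF9 in ISGF3, the complex that binds interferon-stimulated response elements (ISRE) and switches on genes such as Mx1, Oasl and Isg15. Interferon gamma acts at gamma-activated sites (GAS), and IRF1 is among its best known targets. IRF7 amplifies the production of interferon alpha, and IRF8 governs the development of monocytes and dendritic cells. In the colon, both the epithelium and the immune cells of the mucosa make and answer these signals.

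The probes behind the 5 members that carry the result are shown because every value below is a hybridisation to 1 such oligonucleotide of 60 bases. They are printed in lower case from the scanner files, those of Irf8 and Irf9 as their first 30 bases.
Irf7: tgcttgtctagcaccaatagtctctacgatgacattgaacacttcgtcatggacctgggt
Irf8: gagaccctttttcagagaaaatcaacagat
Irf9: gtggccaagagaaagtgcaaggataacttt
Oasl: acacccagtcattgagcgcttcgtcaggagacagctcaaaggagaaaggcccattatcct
Isg15: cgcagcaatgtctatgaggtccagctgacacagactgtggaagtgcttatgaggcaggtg

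The files place these probes on the rn3 build. The Irf7 probe lies at chr1:201607889-201607948 on the minus strand, the Irf8 probe at chr19:51121572-51121631 on the plus strand and the Irf9 probe at chr15:33760368-33760427 on the plus strand. The Isg15 probe lies at chr5:173045169-173045228 on the minus strand. The Oasl probe was given as chr12:42821702-42822543 on the minus strand, a span of 842 bases that is longer than the probe. An exon map of rn3 was not used here, so positions within the genes are not stated.

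The genes fell into 3 kinds. Irf7, Irf8, Irf9 and Oasl were higher in the resveratrol samples, by mean log2 ratios of 0.53 to 0.74, and each lay above 0 on all 4 arrays. Isg15 averaged -0.0013 and Irf1 -0.16, neither past the threshold, and Stat2, Mx1 and Mx2 were too dim to test. Among all 18896 tested probes, 24.3% were called higher and 22.7% lower at an adjusted p under 0.05, so calls in either direction were common on these arrays. The count of 4 called members is a description and no support for the set, since 3 of the 4, Irf7, Irf9 and Oasl, were bright enough for the test only through the Cy5 channel. In bulk RNA, fewer cells of a type and less RNA per cell cannot be told apart.

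**Figure D1:**
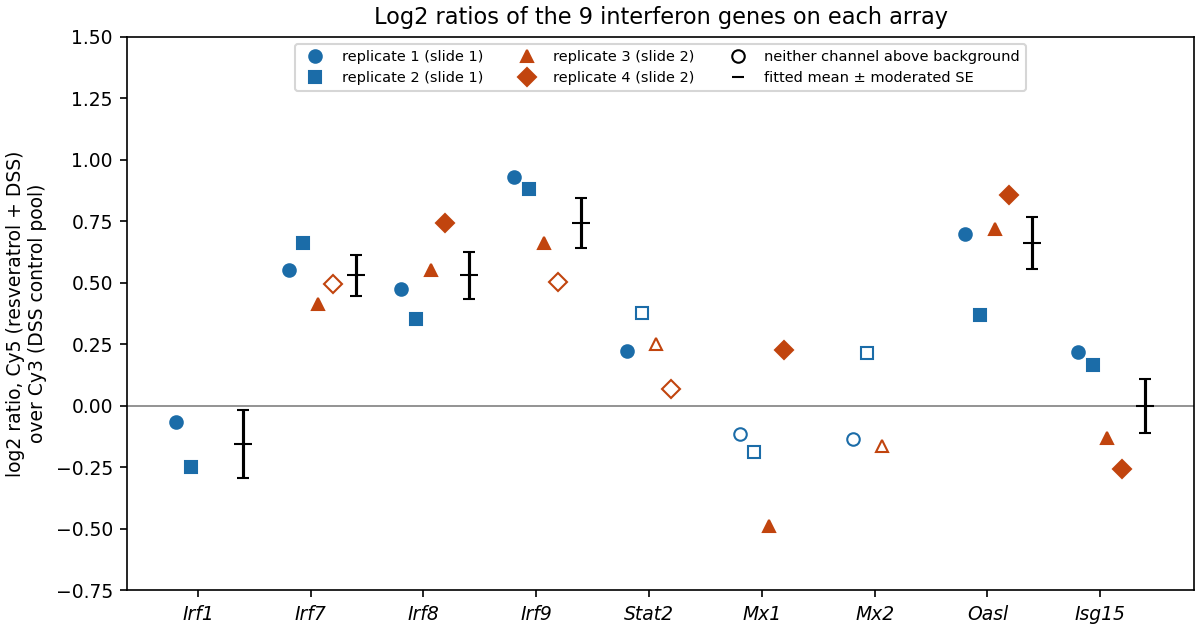
Log2 ratio of resveratrol plus DSS (Cy5) over the DSS control pool (Cy3) for each of the 9 genes, 1 point per array, coloured by slide and filled where at least 1 channel was well above background. Black bars give the fitted mean and moderated SE of the 6 tested genes. Irf7, Irf8, Irf9 and Oasl lie above 0 on all 4 arrays, Isg15 lies above 0 on slide 1 and below 0 on slide 2, and flagged spots (Irf1 on slide 2, Mx2 on replicate 4) are left out.

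Irf7, the factor that drives interferon alpha transcription, had log2 ratios of 0.55, 0.66, 0.41 and 0.49 in replicates 1 to 4. All 4 values lay above 0 within a narrow band, with replicate 2 the highest and replicate 3 the lowest. The mean was 0.53 ± 0.08 (moderated SE, n = 4 arrays, adjusted p = 0.00767 by limma with Benjamini-Hochberg adjustment), with a 95% interval of 0.33 to 0.74. Its probe was well above background in Cy5 on 3 arrays and in Cy3 on none. The control level is therefore only an upper limit. That limit was, on each array, the higher of the measured Cy3 level and the dimmest Cy3 signal called well above background. Against it Irf7 was 1.24-fold higher with resveratrol. Cy5 was taken as measured, also in replicate 4, where it was not well above background. The 1.24-fold is therefore no strict lower bound. A probe that enters the test through Cy5 alone has to lie on the Cy5 side. Of 94 tested probes with Cy3 well above background on no array, 87 were called higher and 0 lower.

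Irf8, the factor of the monocyte and dendritic lineages, was measured well above background in both channels on all 4 arrays. It had log2 ratios of 0.47, 0.35, 0.55 and 0.74. The lowest array was replicate 2 and the highest replicate 4, and none approached 0. The mean was 0.53 ± 0.10 (moderated SE, n = 4, adjusted p = 0.0102), or 1.44-fold, with a 95% interval of 0.30 to 0.76. Of 13137 tested probes measured well above background in both channels on all arrays, 22.6% were called higher. In normalised channel levels, Irf8 lay between 8.67 and 8.77 in Cy5 and between 7.96 and 8.34 in Cy3, so the channels did not overlap and the control channel held most of the spread.

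Irf9, the DNA-binding subunit of ISGF3, had log2 ratios of 0.93, 0.88, 0.66 and 0.50. Both arrays of slide 1 lay above both arrays of slide 2. The mean was 0.74 ± 0.10 (moderated SE, n = 4, adjusted p = 0.0059) with a 95% interval of 0.49 to 0.99. As with Irf7, Cy5 was well above background on 3 arrays and Cy3 on none. Against the same kind of limit Irf9 was 1.28-fold higher, which is again no strict lower bound. In replicate 4 its Cy5 level of 7.67 lay below 7.80, the dimmest Cy5 level called well above background on that array.

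Stat2, the partner of IRF9 in ISGF3, was not tested, because its probe was well above background in Cy5 on 1 array and in Cy3 on none. Its log2 ratios were 0.22, 0.38, 0.25 and 0.07, all above 0 and all at signal levels near background. Fitted without the filter on dim probes, it gave 0.23 and an adjusted p of 0.0754, which misses the threshold. The authors' value table, taken through the same test, gave 0.57 and an adjusted p of 0.0332, so its call rests on how the dim signal is treated.

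Irf1, an early target of interferon gamma, had usable values on slide 1 only. These were -0.06 in replicate 1 and -0.25 in replicate 2, and the spots of replicates 3 and 4 carried outlier flags. The mean of -0.16 ± 0.14 (n = 2 arrays, adjusted p = 0.388) did not pass, with a 95% interval of -0.54 to 0.22 that holds both directions. When flagged spots were kept and loess was refitted with them, the 4 values were 0.07, -0.12, -0.61 and -0.18 with an adjusted p of 0.189. Under loess as used elsewhere here, the flagged spots of replicates 3 and 4 read -1.56 and -0.87. Their size thus depended on the normalisation. Under median centring of the arrays in place of loess the sign of the Irf1 mean turned, to 0.29. Its signal was well above background in both channels on all 4 arrays, so dimness was not the limit here.

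**Figure D2:**
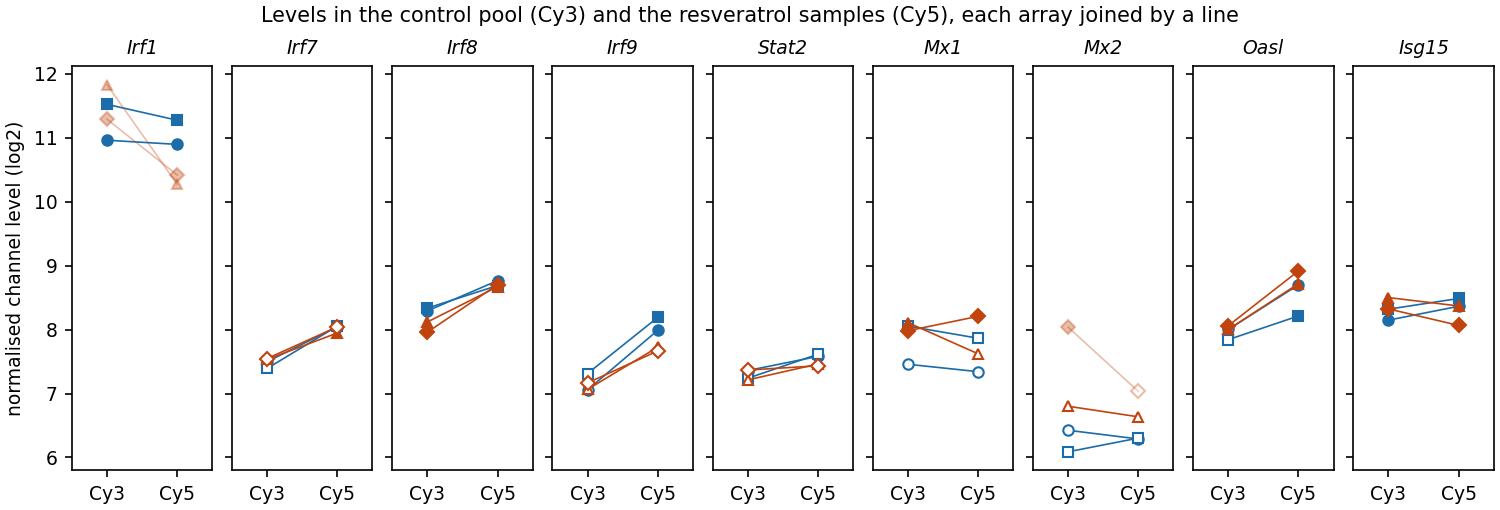
Normalised level on the log2 scale in the control pool (Cy3) and the resveratrol sample (Cy5) for each gene, with the 2 channels of an array joined by a line; blue is slide 1, orange slide 2, and filled symbols were well above background in that channel. Pale symbols are outlier-flagged. Irf7 and Irf9 have open Cy3 symbols on every array, while Irf8 and Isg15 are filled in both channels throughout; levels are not comparable between genes.

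Among the response genes, Oasl, a member of the oligoadenylate synthetase family of antiviral proteins, had log2 ratios of 0.70, 0.37, 0.72 and 0.86. Replicate 2 stood below the other three, which lay close together. The mean was 0.66 ± 0.10 (moderated SE, n = 4, adjusted p = 0.00765), or 1.58-fold, with a 95% interval of 0.41 to 0.92. Cy5 was well above background on all 4 arrays and Cy3 on 2, those of slide 2. Of 2186 tested probes with Cy3 well above background on 1 or 2 arrays, 1106 were called higher and 25 lower. On slide 2 alone the mean was 0.79 with an adjusted p of 0.0467, the only member call there.

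Isg15, the ubiquitin-like modifier that interferon induces strongly and that is conjugated to other proteins, was bright enough in both channels on all 4 arrays. Its log2 ratios were 0.22, 0.17, -0.13 and -0.26. Both values of slide 1 were above 0 and both of slide 2 below, so the slide means were 0.19 and -0.19. The overall mean was -0.0013 ± 0.11 (moderated SE, n = 4, adjusted p = 0.993). The 95% interval ran from -0.27 to 0.27, which lies below the means of Irf7, Irf8, Irf9 and Oasl but does not show that the level was the same. The difference between slides was not tested as an effect, since slides are not study groups.

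Mx1 and Mx2, dynamin-like GTPases that block viral replication, could not be tested. Mx1 had log2 ratios of -0.12, -0.19, -0.49 and 0.23, with replicate 4 on the other side of 0 from the rest. Its probe was well above background in Cy5 on 1 array and in Cy3 on 2. Mx2 had -0.14, 0.21 and -0.17 in replicates 1 to 3, the spot of replicate 4 was flagged, and Cy5 was well above background on no array. Without the filter, Mx1 gave -0.14 (adjusted p = 0.402) and Mx2 -0.03 (adjusted p = 0.874). The Mx1 probe lies at chr11:37497220-37497279 on the minus strand of rn3.

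The size of the 4 higher ratios changed with the background treatment, and all stayed above 0. For Irf7 and Irf9, with Cy3 well above background on no array, the filter had fixed that direction. It favoured the same direction for Oasl, which also entered the test only through Cy5. A constant direction is therefore no result for these genes. With the scanner's processed signals Irf7 was 1.32, Irf8 0.96, Irf9 1.61 and Oasl 1.06. The authors' value table gave 1.26, 0.77, 1.67 and 1.03 for the same genes. Lowering the offset of the background correction from 50 to 10 gave 0.66, 0.62, 0.99 and 0.78, short of the values from processed signals. Median centring, which moved the median of all tested probes from -0.02 to 0.20, gave 0.54, 0.64, 0.74 and 0.75 for Irf7, Irf8, Irf9 and Oasl.

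The spread assumed for the pool and the slide bore on the calls. The standard error was also widened by an assumed amount for variation of the pool. Irf7, Irf9 and Oasl then had adjusted p-values of 0.0444, 0.0367 and 0.0444, and Irf8 missed at 0.0551. The spread of the pool was not measured, and a larger assumed spread could remove the calls of Irf7, Irf9 and Oasl too. Their calls are therefore not shown to survive variation of the pool. Within slide 1 all 4 were called. Within slide 2 the means were 0.45 for Irf7, 0.65 for Irf8 and 0.58 for Irf9, with adjusted p-values of 0.0821, 0.0531 and 0.0598. With any single array left out, all 4 were still called, at adjusted p-values up to 0.0474.

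**Figure D3:**
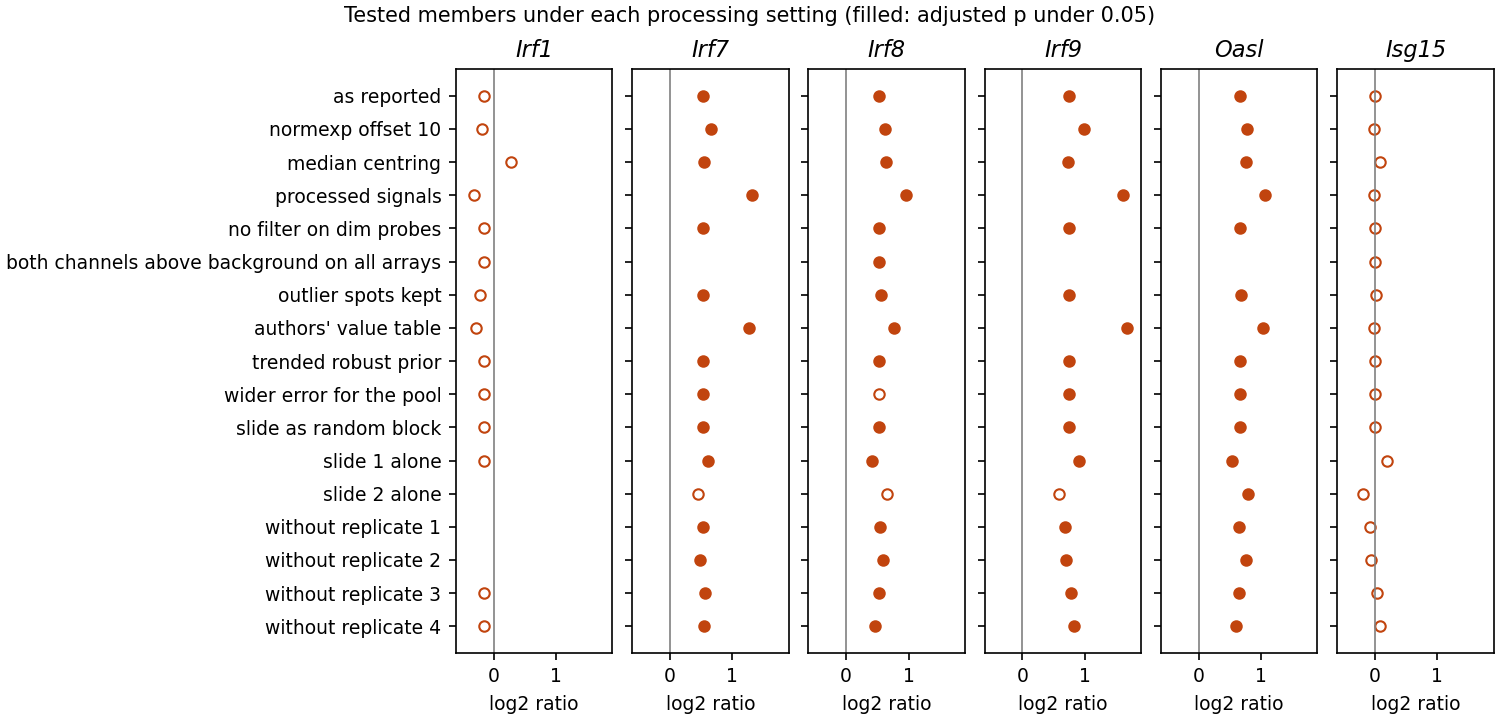
Mean log2 ratio of the 6 tested genes (panels) under each processing setting (rows), filled where the adjusted p was under 0.05; a missing point could not be fitted. Irf7, Irf8, Irf9 and Oasl lie right of 0 in each setting shown, with the highest values from processed signals and the authors' value table, and Isg15 stays between -0.19 and 0.19.

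The promoters of the members were searched for the letters bound by the 2 kinds of interferon-activated complexes, because 4 members were higher and 2 tested members were not. RefSeq promoter windows of assembly GRCr8 (250 bases before the start site to 50 after) were held for 7 of the 9 genes, all but Mx2 and Isg15. The ISRE core, a pair of GAAA half-sites, was searched as GAAANNGAAA and the GAS as TTCNNNGAA, both on either strand, and no match of one overlapped the other in these promoters. Of 33469 promoters in the table, 3.92% held the ISRE core and 8.87% the GAS letters. The ISRE core was found in 1 of the 7, Irf7, and the GAS in 3, Irf1, Irf8 and Irf9. The stretches around the matches follow 5′ to 3′ on the strand of the gene, with the matching letters in capitals; in Irf7 the match reads GAAAATGAAA on the opposite strand.
Irf7: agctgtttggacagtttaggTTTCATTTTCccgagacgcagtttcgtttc
Irf8: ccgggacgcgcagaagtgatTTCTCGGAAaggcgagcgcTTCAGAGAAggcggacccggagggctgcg
Irf9: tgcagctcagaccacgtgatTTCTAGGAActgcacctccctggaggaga
Irf1: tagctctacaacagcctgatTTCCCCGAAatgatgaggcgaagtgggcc

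On GRCr8 these stretches are chr1:205800063-205800112 (minus strand) for Irf7, chr19:65699084-65699151 (plus) for Irf8, chr15:33065717-33065765 (plus) for Irf9 and chr10:38417773-38417821 (plus) for Irf1. Irf8 held 2 GAS matches, at -180 to -172 and at -161 to -153 from the start site. The match of Irf9 lay at -99 to -91, that of Irf1 at -142 to -134, and the ISRE core of Irf7 at -69 to -60. The GAS letters thus occurred in 2 genes that were higher and in Irf1, which was not called. Stat2, Mx1 and Oasl held neither string in this window, which says nothing about the factors themselves.

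**Figure D4:**
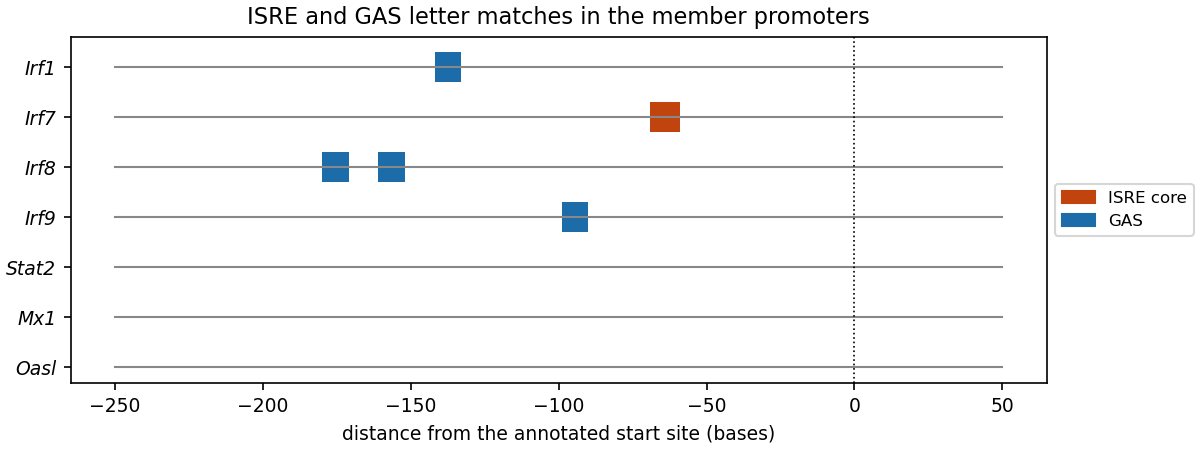
Positions of ISRE core (orange) and GAS (blue) letter matches from 250 bases before to 50 bases after the annotated start site (dotted line at 0) of the 7 members with a RefSeq promoter. Only Irf7 has an ISRE core match, and Irf8 has 2 GAS matches.

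A list of 141 other interferon pathway genes, sorted by role, gives the setting of these members. Of these, 110 had a probe and 80 were tested; 26 were higher, 11 lower and 43 not called, with a median log2 ratio of 0.10 against -0.02 for all tested probes. The share higher was thus 26 of 80 beside 24.3% of all tested probes, and the share lower 11 of 80 beside 22.7%. Median centring turned the split to 37 higher and 3 lower, while all tested probes went from 51.7% to 78.8% higher among those called. The counts also leaned on slide 1: without replicate 1 there were 7 higher and 4 lower, without replicate 2 9 and 3, and on slide 2 alone 0 and 4. With the wider error for the pool 6 were higher and 3 lower. Comparison with the members is descriptive, since all genes share the same arrays and pool.

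Ligands were lower or not called. The Ifna4 probe averaged -0.73 ± 0.10 on the log2 scale (moderated SE, n = 4, adjusted p = 0.00556) and the Ifna5 probe -0.44 ± 0.08 (n = 4, adjusted p = 0.0105), both below 0 on all arrays. Both entered the test only through Cy3, which was well above background on 4 arrays, against 1 array in Cy5 for Ifna4 and 2 for Ifna5, so these ratios are uncertain in size. The Ifna5 call was lost under median centring (adjusted p = 0.0625), with the wider pool error (0.0566), on slide 2 alone (0.0739) and without replicate 1 (0.0528) or 2 (0.0508). The interferon alpha genes are a family of close copies, so which gene a probe reads is uncertain. Ifnb1, at 0.24, was not called.

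Among 6 tested receptor and kinase genes, 4 were higher and 1 lower, beside 24.3% higher and 22.7% lower of all tested probes. Both chains of the interferon gamma receptor were higher, Ifngr1 at 0.95 ± 0.13 on 4 arrays and Ifngr2 at 1.22 ± 0.23 on 3. Jak1, the kinase shared by both interferon receptors, was 0.78 ± 0.16, and Il10rb, the receptor chain shared by interleukin 10 and interferon lambda, 0.46 ± 0.10. Ifnar1, a chain of the type I receptor, was the lower one at -0.45 ± 0.13, with replicate 1 near 0 at -0.04. The Ifnar1 call was lost with the wider pool error, on slide 2 alone and without replicate 2. Its probe entered the test only through Cy3, well above background on 4 arrays against 2 in Cy5. With the wider pool error Ifngr1 was still called, while Ifngr2 (adjusted p = 0.0694), Jak1 (0.07) and Il10rb (0.0848) were not. Without replicate 1 the same 3 missed, at adjusted p-values of 0.057, 0.0511 and 0.0791, and so did Ifngr2 without replicate 2 and Il10rb without replicate 4.

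Transducers and other factors showed 3 higher, 1 lower and 6 not called of 10 tested, beside 24.3% higher and 22.7% lower of all tested probes. Stat3, which carries interleukin 6 and interleukin 10 signals, was 0.88 ± 0.17, and Irf2bp1, a corepressor that binds IRF2, 0.45 ± 0.10. Socs1, an inhibitor of JAK kinases, was lower at -0.37 ± 0.08. The Socs1 call was lost under median centring, where it read -0.12, with processed signals (adjusted p = 0.0908), with outlier spots kept (0.0571), with the wider pool error (0.0815), on slide 2 alone and without replicate 1 or 2. Irf2bp1 missed with the wider pool error (0.0757), on slide 2 alone and without replicate 1 or 2, and Stat3 with the wider pool error (0.061) and on slide 2 alone.

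The 9 tested sensors and adaptors were split evenly between 3 higher, 3 lower and 3 not called. All tested probes had 24.3% higher and 22.7% lower. Myd88, the adaptor of most Toll-like receptors, was 0.45 ± 0.08, with Cy5 well above background on 4 arrays and Cy3 on 2. Tlr9, the receptor for unmethylated DNA, was -0.62 ± 0.11, with Cy5 well above background on no array, so that its level with resveratrol is only an upper limit. Its probe thus entered the test only through Cy3 and had to lie on the lower side. Of 260 tested probes with Cy5 well above background on no array, 225 were called lower and 0 higher. Mavs, the mitochondrial adaptor of RNA sensing, was -0.72 ± 0.15 on 2 arrays, and Dhx58, an RNA helicase of the RIG-I family, -0.37 ± 0.10, though another Dhx58 probe read 0.13. The Mavs call was lost under median centring, at -0.22, and with processed signals (adjusted p = 0.0983), the wider pool error (0.0939) and a trended prior (0.0521). The Dhx58 call was lost under median centring (0.174), with the wider pool error (0.105), with all probes averaged (0.148), on slide 2 alone and without replicate 1, 2 or 4. That of Myd88 was lost with the wider pool error (0.0583), on slide 2 alone and without replicate 1 or 2. In the ISG15 conjugation machinery Trim25, a ubiquitin and ISG15 ligase, was 0.64 ± 0.10, also with Cy5 well above background on 4 arrays and Cy3 on 2. Myd88 and Trim25 thus entered the test only through Cy5. Of 2186 tested probes with Cy3 well above background on 1 or 2 arrays, 1106 were called higher and 25 lower. Uba7, the activating enzyme for ISG15, was -0.58 ± 0.15 on 2 arrays, while Isg15 itself lay above 0 on 2 arrays and below on 2. The Uba7 call was lost with slide as a random block (adjusted p = 0.0616), with both channels required (0.0576), with the wider pool error (0.128) and under median centring, where it read -0.15.

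Of 37 tested effector and response genes, 9 were higher, 2 lower and 26 not called, with a median of 0.09. The share higher was near that of all tested probes, of which 24.3% were called higher and 22.7% lower. Lgals9, which encodes galectin-9, was 1.35 ± 0.15 on 3 arrays. Ifitm2 and Ifitm3, membrane proteins that restrict viral entry, went opposite ways, at 0.87 ± 0.12 and -1.27 ± 0.18. They are close copies, and what each probe reads is uncertain.

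Antigen processing genes, many of them targets of interferon gamma, had 6 of 11 tested members higher and 0 lower. The shares over all tested probes were 24.3% higher and 22.7% lower. B2m, the light chain of class I molecules, was 0.85 ± 0.26 (adjusted p = 0.0408), with 1.40, 1.25, -0.18 and 0.92 in replicates 1 to 4. RT1-A2, a rat class I heavy chain, was 0.61 ± 0.19 and also below 0 in replicate 3, at -0.11. Psmb9, an immunoproteasome subunit, was 0.64 ± 0.15 and Psme1, a proteasome activator subunit, 0.49 ± 0.13, both above 0 on all arrays. With slide as a random block the calls of B2m (adjusted p = 0.0562) and RT1-A2 (0.0722) were lost. Without replicate 1 or without replicate 2, B2m, RT1-A2, Psmb9 and Psme1 all missed, at adjusted p-values of 0.0703 to 0.132. On slide 2 alone their means were 0.37, 0.45, 0.36 and 0.27, none called, and under median centring they were 1.49, 1.21, 1.06 and 0.85. The class I genes form a family of near-identical members, so the RT1-A2 value may include others. Ccl5, a chemokine for T cells and the only one of 4 chemokine genes tested, was -0.68 ± 0.18 on 3 arrays. It moved to -0.44 without replicate 3, and its call was lost without replicate 1 (adjusted p = 0.0572) or 2 (0.0805), with the wider pool error (0.117) and under median centring (-0.36).

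**Figure D5:**
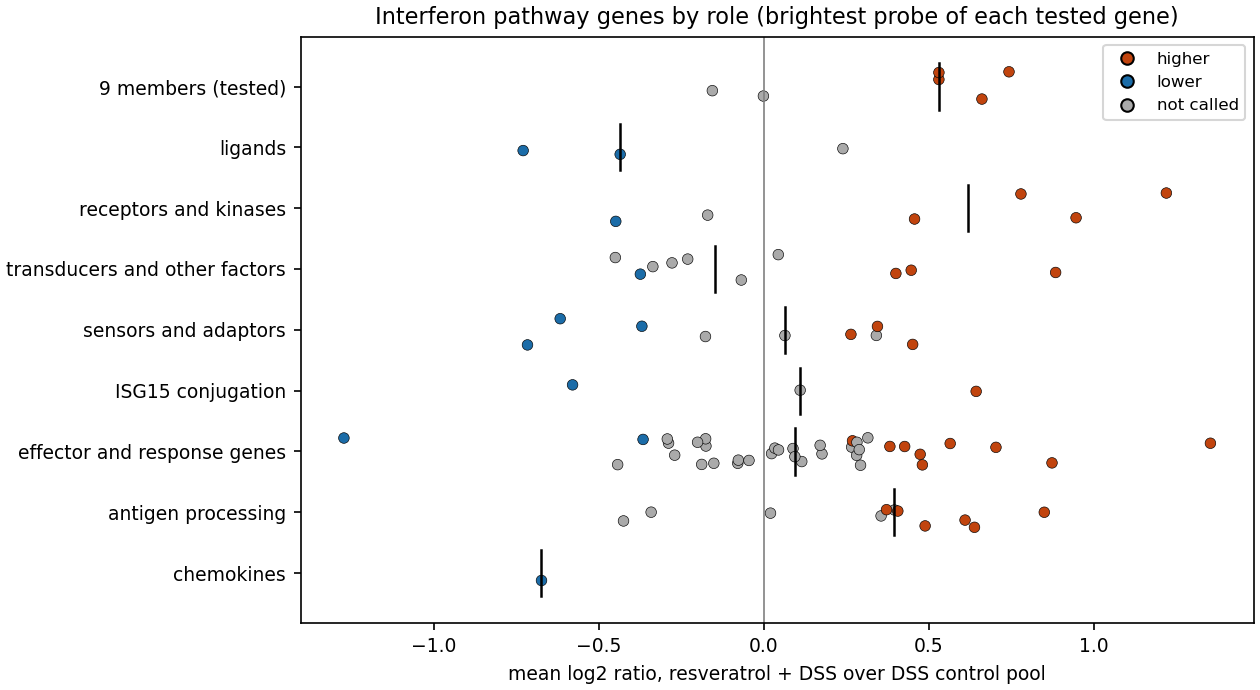
Mean log2 ratio of each tested gene (points) by role, for the 6 tested members in the top row and for 80 other pathway genes below; orange is called higher, blue lower and grey not called, and the black bar is the median of the row. Receptors and antigen processing genes lie mostly right of 0, ligands mostly left, and effector genes on both sides around a median of 0.09.

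The genes whose 4 array values were most like a member's were taken from 67 pathway genes and members measured on all arrays, by the mean absolute difference in log2 ratio. Irf7 was nearest to Pml, a nuclear body protein, with a mean difference of 0.086, and then to Myd88 at 0.103. Irf8 was nearest to Pml at 0.124 and to Oasl at 0.13, and the nearest gene to Oasl was Irf8, followed by Il10rb at 0.204. Psmb9 was among the 2 nearest to Irf9, at 0.115. Lgals3bp was among the 2 nearest to Isg15, at 0.0707, and was likewise above 0 on both arrays of slide 1 and below 0 on both of slide 2. With 4 arrays and shared dyes and pool, these distances describe the arrays only.

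Markers of the cells that the mucosa holds moved in the same comparison. Their counts stand beside 24.3% called higher and 22.7% called lower of all tested probes. Epithelial markers were higher in 4 of 9 tested and lower in 0, with a median of 0.48. The defining pair, Epcam at 0.46 and Cdh1 at 0.08, was well above background in both channels on all arrays but not called, and Krt18 was the largest at 1.38. Summed over the tested epithelial markers, the linear signal ranged from 69731 to 136640 in Cy5 and from 45240 to 79244 in Cy3. Array by array, the log2 ratio of these sums ran from -0.17 to 1.07, so the sum was not higher with resveratrol on every array. All marker sums given here include outlier-flagged spots, which the log2 ratios of single markers leave out. Cdx2 had a log2 ratio of 0.09 on 2 arrays, but mean levels with flagged spots of 7599 in Cy5 and 10955 in Cy3.

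Under the processing used for the reported values, each called marker of blood-derived cells was lower, though not all tested markers were called. Cd14 at 0.24 and Cd3g at 0.09 lay above 0 and were not called. Monocyte and macrophage markers were lower in 6 of 7 tested and higher in 0 (median -0.76), with Lyz2 the largest at -1.06 on 2 arrays. Their summed signals were 4054 to 5945 in Cy5 and 8554 to 11892 in Cy3. Csf1r was -0.60, while Cd68 was not tested, with Cy5 well above background on no array. Dendritic markers were lower in 2 of 3 tested (median -0.52; Batf3 and Flt3 both at -0.52), with sums of 1119 to 1266 in Cy5 and 1340 to 1945 in Cy3; Itgax was not matched to a probe. The dendritic count fell to 0 of 3 with slide as a random block, with both channels required, with the wider pool error, under median centring and without replicate 2, 3 or 4, and to 1 without replicate 1. Irf8 lay above 0, and the called macrophage markers below 0, on every array with a value. A link between them was not tested.

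T and NK markers were lower in 5 of 7 tested, with Cd3d at -0.75, Cd3e at -0.45 and Nkg7 the largest at -0.82, and sums of 2252 to 3061 in Cy5 and 2699 to 4205 in Cy3. B and plasma cell markers were lower in 1 of 3 (Mzb1 at -0.66), with Cd79a not matched to a probe and sums of 1607 to 3413 in Cy5 and 3507 to 4224 in Cy3. All 4 tested neutrophil markers were lower, S100a8 at -3.17 and S100a9 at -2.06, with sums of 5839 to 10581 in Cy5 and 19847 to 34397 in Cy3. Matrix markers were lower in 5 of 6, Col3a1 the largest at -2.30 and Col1a2 at -1.95, while Col1a1 at 0.22 was not called, with sums of 14054 to 26451 in Cy5 and 23073 to 39429 in Cy3. Under median centring 9 of 9 epithelial markers were higher. Of 7 macrophage markers 6 were then lower and 1 higher, and of 6 matrix markers 5 lower and 1 higher. With outlier spots kept and on slide 1 alone, 1 macrophage marker was also called higher. With the wider pool error 1 epithelial, 3 macrophage, 2 neutrophil and 3 matrix markers were called, and 0 of 7 T and NK markers. The T and NK count fell to 2 of 7 without replicate 1, 1 of 7 without replicate 2 and 1 of 5 on slide 2 alone. The part of cell composition in the ratios of the interferon genes was not tested.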

How the data were processed

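The deposited scanner files hold the intensity of each spot in both channels. Per the file headers they were written by Feature Extraction 9.5.3.1 with probe positions on rn3. The deposited log10 ratio was not used for the comparison. The authors' value table holds log2 ratios: its 24197 probes all matched, and its values followed the scanner's with r of 0.981 to 0.992 and slopes of 0.972 to 1.00, which set scale and direction. Its column medians were -0.013, -0.013, 0.0909 and -0.0247, with the centring unknown. The tools named in the submitters' processing notes are limma and Agilent Feature Extraction.

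Mean signals and local background medians were corrected by normexp (offset 50) and normalised by loess within arrays with limma 3.58.1 (R 4.3.3). Weight 0 was given to outlier-flagged spots and to the 1639 controls among 45018 spots. The filter asked for 3 or more arrays with a probe well above background in either channel, and for 2 or more values: 20436 passed and 18896 were tested, 14227 on 4 arrays, 1969 on 3 and 2700 on 2. The mean was tested against 0 with lmFit and eBayes, two-sided, adjusted by Benjamini-Hochberg over all tested probes at 0.05. The script was tested on simulated data. Values after ± are moderated standard errors. The labels give different rats on each array, numbered here in accession order, and their number limits the precision. The folds of Irf7 and Irf9 against a Cy3 limit used channel levels after loess and Aquantile normalisation, open to dye bias. The summed marker signals used the same levels, with outlier-flagged spots kept.

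Genes were named through a RefSeq table of GRCr8 by accession (10735 probes), symbol (5577), synonym (3706), gene ID (1879) or another accession (83); 19032 stayed unnamed. A gene took its brightest probe. The members and the pathway and marker lists were chosen with earlier results of these data known. By rule, all members were named, with up to 4 called pathway genes per role by size, the 2 nearest genes per member, and the defining and largest marker of each list; Ifnb1, Ifnar1 and the second Dhx58 probe were named after their values were seen, and a few genes within the rule are not reported here. Alternatives were other offsets, normalisations, filters, signals, priors, a wider pool error, slides and left-out arrays. The size of the wider pool error was an assumption, since the spread of the pool was not measured. A call kept under it, for any gene, is not shown to survive variation of the pool.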

Additional observations from a re-analysis of the deposited data

How the results depend on the processing

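The 4 member calls numbered 1 when both channels had to be above background on all arrays (Irf8, since the others were not then tested) and 1 on slide 2 alone (Oasl); under the other settings they numbered 3 to 5. Pathway calls numbered 37, against 20 with both channels required, 9 with the wider pool error, 4 on slide 2 alone (3 of them among the 37) and 11 to 37 with 1 array left out (11 to 35 among the 37). Calls over all probes numbered 8896, against 4562, 2190, 1755 and 3404 to 8976 in separate fits under these settings. The sign of Irf1 turned under median centring (0.286, not called). Isg15, near 0, turned to 0.0819 under median centring, 0.0171 with outlier spots kept and 0.192 on slide 1 alone, and ranged from -0.0739 to 0.0841 with 1 array left out, never called. The cause was not tested. Irf1 could not be fitted on slide 2 alone or without replicate 1 or replicate 2. Among 25 pathway genes taken by the naming rule, 328 of 410 alternative values kept direction and call, 82 kept direction only and 0 reversed. These genes were chosen as called with large ratios in these same data. Several settings changed only the error or the set of tested probes and so kept the same mean. The absence of reversals is therefore no measure of stability. No paired analysis was possible because the labels give a single group against a control pool. Signal near background limits Irf7, Irf9, Stat2, Mx1 and Mx2.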
